A study of Homo sapiens with 6 samples.

Results

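Regulators of G-protein signalling (RGS proteins) were followed through the transcripts of 9 genes, RGS1, RGS2, RGS3, RGS10, RGS12, RGS14, RGS16, RGS18 and RGS19. The array carried 57 probe sets annotated to a single RGS gene, for 20 RGS genes, and the 28 probe sets of these 9 genes make up the set described here, out of 54675 probe sets in the table. The 9 genes were chosen by a rule that had the measured CA minus DMSO values in view, so their differences are given as a description and no test is drawn from them. MOLM-14 is an established cell line from a human acute myeloid leukaemia and has an MLL-AF9 rearrangement. Control wells received the vehicle DMSO and treated wells 10 nM cortistatin A (CA), an inhibitor of the Mediator kinases CDK8 and CDK19, each for 24 h and in 3 wells of a 12-well format. Each well gave 1 Affymetrix U133 Plus 2.0 array, so 3 DMSO and 3 CA arrays were compared, all from this 1 cell line. The labels name both an RNeasy kit and TRIzol for RNA isolation without assigning them to arrays, so the part of the isolation method in the differences was not tested. The labels name no separate cultures beyond the wells, and p-values therefore rest on the spread between these wells alone, and that may be technical.

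Heterotrimeric G proteins are switched on when a receptor loads the alpha subunit with GTP, and switched off when the alpha subunit hydrolyses it. RGS proteins bind active alpha subunits through their RGS domain and speed this hydrolysis, so they shorten signals from chemokine, lipid and other receptors. In blood cells the small R4 proteins are known for limiting chemokine receptor signalling. Among the 9 genes, RGS1, RGS2, RGS3, RGS16 and RGS18 belong to the R4 subfamily, RGS10, RGS12 and RGS14 to R12, and RGS19 to RZ.

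Of the 9 genes, 4 lie on chromosome 1 and have a single listed start site in the RefSeq promoter table (assembly GRCh38.p14), and these include the genes with the largest differences in both directions. In the gene order of that assembly, RGS18, RGS21, RGS1, RGS13 and RGS2 follow each other with 0 other protein-coding genes between neighbours, and RGS16 lies next to RGS8 in the same way, elsewhere on the chromosome. The 250 bases before each start are shown, because RGS18 and RGS1 were lower and RGS16 and RGS2 higher in CA. Capitals mark every match, on either strand, to TGACGTCA for a CRE, its shorter core TGACG, the STAT site TTCNNNGAA, the ETS letters GGAAGT, the letters AGATAA for GATA factors, TATAAA for a TATA box and CACGTG for an E-box. The windows are chr1:192158212-192158461 (+ strand) for RGS18, chr1:192575523-192575772 (+ strand) for RGS1, chr1:182604390-182604639 (- strand) for RGS16 and chr1:192808789-192809038 (+ strand) for RGS2.
RGS18: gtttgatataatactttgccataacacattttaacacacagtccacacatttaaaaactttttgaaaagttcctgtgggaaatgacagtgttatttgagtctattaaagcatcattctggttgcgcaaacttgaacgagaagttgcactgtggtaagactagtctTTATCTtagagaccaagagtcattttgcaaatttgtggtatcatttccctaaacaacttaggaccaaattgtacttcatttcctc
RGS1: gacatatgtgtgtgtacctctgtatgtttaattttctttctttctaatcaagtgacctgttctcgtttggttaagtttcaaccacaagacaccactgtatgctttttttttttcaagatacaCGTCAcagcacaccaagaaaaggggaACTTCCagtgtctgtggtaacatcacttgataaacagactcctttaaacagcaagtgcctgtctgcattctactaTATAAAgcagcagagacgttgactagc
RGS16: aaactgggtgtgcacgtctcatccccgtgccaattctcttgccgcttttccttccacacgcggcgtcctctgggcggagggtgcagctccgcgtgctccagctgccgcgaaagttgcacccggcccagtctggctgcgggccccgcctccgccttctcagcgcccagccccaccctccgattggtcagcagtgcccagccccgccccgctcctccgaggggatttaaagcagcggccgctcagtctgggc
RGS2: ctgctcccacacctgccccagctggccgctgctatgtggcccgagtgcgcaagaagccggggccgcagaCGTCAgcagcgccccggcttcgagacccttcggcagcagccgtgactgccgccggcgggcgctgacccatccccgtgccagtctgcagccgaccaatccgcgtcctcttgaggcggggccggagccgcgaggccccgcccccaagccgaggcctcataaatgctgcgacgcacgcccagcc

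The 2 windows of the genes that were lower were poor in G and C, and the 2 of the genes that were higher were rich in them. The RGS18 window held 34.8% G and C, and 5.3% of all 35116 windows of the table held less. The RGS1 window held 39.2%, with 11.4% of windows below it. The RGS16 window held 68.4% (75.6% of windows below it) and the RGS2 window 72.8% (85.3%), against a median of 58.0% over all windows. RGS19, which was also lower in CA, did not share the low content, as its 2 windows held 80.4% and 72.8%. RGS18 had 1 match, AGATAA on the - strand with its first base 85 bases before the start, a sequence found in 9.17% of all windows. RGS1 had 3 matches, a TGACG on the opposite strand (21.2% of windows), a GGAAGT on the opposite strand (19.5%) and a TATAAA 27 bases before the start (10.7%). RGS2 had 1 match, TGACG on the opposite strand 181 bases before its start. None of the 7 sequences was in the RGS16 window, which says only that these letters are not there. TGACGTCA (1.65% of windows) and TTCNNNGAA (6.57%) matched in none of the 19 windows of the 9 genes. With 9 genes these are descriptions, and no share was tested.

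RGS18, which is known from platelets, megakaryocytes and leukocytes and acts on Gi and Gq alpha subunits, had the largest difference of the family. Its only probe set read 6.94, 7.27 and 6.92 on the DMSO arrays and 5.39, 5.24 and 5.10 on the CA arrays (RMA intensity, log2). Each CA value lay far under each DMSO value, and the groups did not overlap. The group means were 7.05 ± 0.19 and 5.25 ± 0.14 (SD, n = 3), which is a 3.48-fold lower level in CA. Ordered by this difference, it was number 1 of the falls among 54613 probe sets. In these bulk samples, fewer cells with the transcript and less RNA per cell cannot be told apart. Among megakaryocyte and platelet genes, of 7 measured of 8 listed, including the platelet chemokine genes PF4 and PPBP and the integrin gene ITGA2B, 0 were called by limma and 0 had an unadjusted p under 0.05. Their mean log2 level per array was 4.96 to 5.08 in DMSO and 4.97 to 5.08 in CA. Of all genes, 11.1% were called, so nothing is read from the count of 0. Of the 7, 2 (PPBP and GP6) had a mean under the lower quartile of the arrays (4.12), where a fall could hardly be seen. Whether cells of this kind were lost was not tested.

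RGS16, an R4 protein induced in activated lymphocytes and known to restrain chemokine receptors, differed in the other direction. Probe set 209324_s_at read 9.78, 9.71 and 9.61 in DMSO and 11.20, 11.22 and 11.24 in CA. The CA arrays were tightly grouped and all above the DMSO arrays, with means of 9.70 ± 0.09 and 11.22 ± 0.02 (SD, n = 3) and a 2.88-fold higher level in CA. A second probe set, 209325_s_at, differed by 1.49 (log2), close to the 1.53 of the first. The third, 242212_at, read 3.66, 3.31 and 3.37 in DMSO and 3.63, 3.92 and 3.47 in CA, and its groups overlapped. That probe set lay under the lower quartile of the arrays (4.12), where little signal stands above background, so its difference of 0.23 has no clear meaning. Both probe sets with the large difference end in _s_at, a suffix for probes that can match several transcripts, and without such probe sets RGS16 rests on 242212_at alone.

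**Figure D1:**
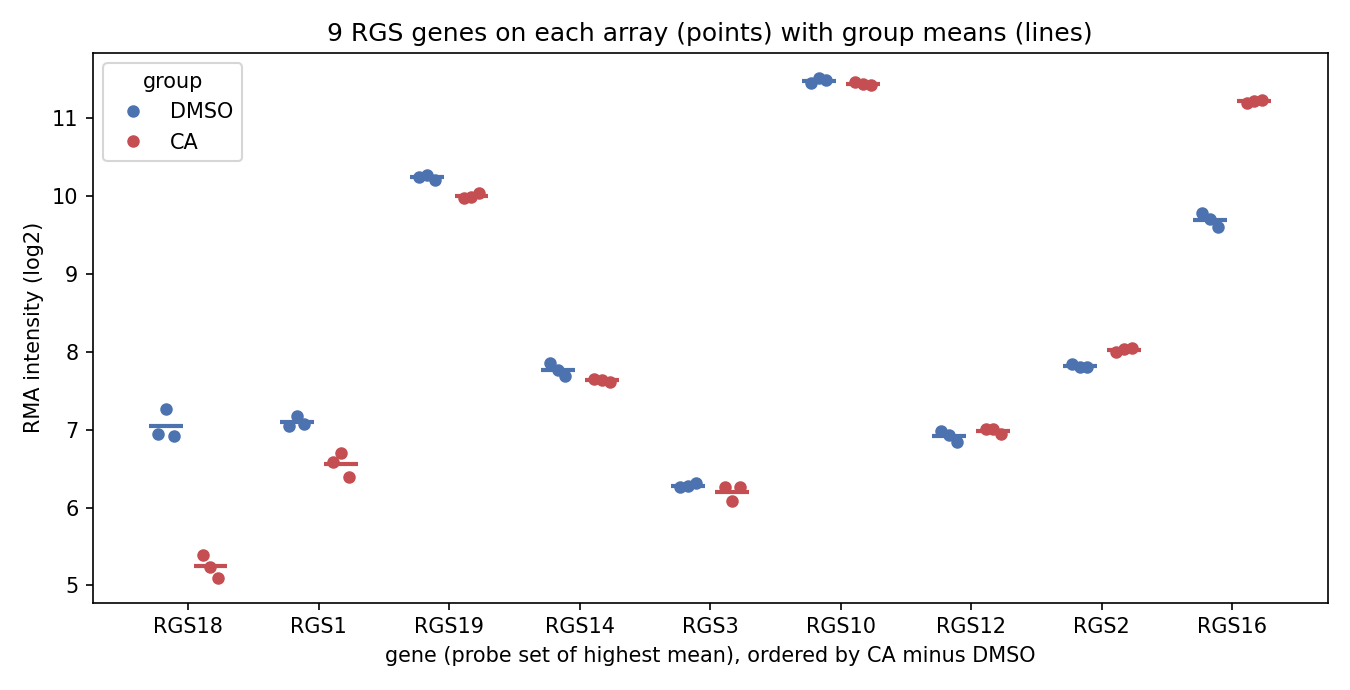
Each point is 1 array and each line a group mean, in log2 RMA intensity, for the probe set with the highest mean of each RGS gene, with genes ordered along the x axis by CA minus DMSO. RGS18 (7.05 in DMSO, 5.25 in CA) and RGS16 (9.70 and 11.22) stand at the ends of the order, and levels of different genes come from different probes and cannot be compared.

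RGS1, which damps chemokine receptor signalling in B cells and other leukocytes, lies 2 genes from RGS18 among the coding genes of chromosome 1 and was also lower. Probe set 216834_at read 7.05, 7.18 and 7.08 in DMSO and 6.58, 6.70 and 6.39 in CA. The groups did not overlap, and the level was 1.46-fold lower in CA (means 7.10 ± 0.07 and 6.56 ± 0.16; SD, n = 3). Probe set 202988_s_at differed the same way, by -0.42 on the log2 scale, from 5.24, 4.92 and 4.91 to 4.53, 4.63 and 4.65. The third, 202989_at, read 2.90 on each DMSO array and 2.94, 3.08 and 2.85 in CA, and was under the lower quartile of the arrays. RGS2, the R4 protein with a preference for Gq, is the last gene of the same chromosome 1 row and differed in the opposite direction from RGS18 and RGS1. Its probe set read 7.84, 7.81 and 7.80 in DMSO and 8.0, 8.04 and 8.05 in CA. The spread within groups was small and the groups did not overlap, although the level was only 1.16-fold higher (means 7.82 ± 0.02 and 8.03 ± 0.03; SD, n = 3). RGS3, an R4 gene with long and short isoforms, was nearly level. Its probe set 203823_at read 6.26, 6.28 and 6.31 in DMSO and 6.26, 6.09 and 6.26 in CA. Of its other probe sets, 220300_at differed by -0.08 without overlap, while 232223_at read 3.99, 3.90 and 3.99 in DMSO and 4.13, 3.98 and 3.94 in CA. The mean of 232223_at was also under the lower quartile.

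RGS19, an RZ protein also known as GAIP that binds alpha subunits of the Gi class, was lower by a small amount with little spread. Its only probe set read 10.25, 10.27 and 10.21 in DMSO and 9.98, 9.99 and 10.04 in CA. The groups did not overlap, and the level was 1.18-fold lower in CA (means 10.24 ± 0.03 and 10.00 ± 0.03; SD, n = 3).

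The R12 genes differed by small amounts. RGS10, a small protein of macrophages and microglia that acts on Gi, read 11.45, 11.52 and 11.49 in DMSO and 11.47, 11.44 and 11.43 in CA on 204319_s_at, and these ranges overlapped. Its other probe sets differed by -0.06 and -0.12. RGS14, which also carries Ras-binding and GoLoco domains, read 7.86, 7.77 and 7.69 in DMSO and 7.65, 7.64 and 7.61 in CA on 38290_at. All CA values were below the DMSO values, at a difference of -0.14, and the other probe sets of RGS14, with differences of -0.10 and -0.07, overlapped between groups. RGS12, a large protein that joins PDZ, RGS, Ras-binding and GoLoco domains, had 10 probe sets, of which 5 were higher and 5 lower in CA. The one with the highest mean, 242079_at, read 6.99, 6.93 and 6.84 in DMSO and 7.01, 7.01 and 6.95 in CA. The probe sets of RGS12 ranged from -0.16 to 0.14 in their differences, so no direction was shared. Of those that pointed lower, 205823_at read 6.74, 6.84 and 6.74 in DMSO and 6.73, 6.86 and 6.70 in CA. Probe set 214362_at read 5.13, 5.23 and 5.22 in DMSO against 5.28, 4.82 and 5.44 in CA. Both overlapped between groups. Probe set 1555032_at, with 4.62, 4.61 and 4.49 against 4.42, 4.36 and 4.46, was the only RGS12 probe set whose groups did not overlap. The remaining pair lay near or under the lower quartile, 1555033_a_at at 4.12, 4.11 and 4.07 in DMSO and 4.26, 4.05 and 3.94 in CA, and 209638_x_at at 3.31, 3.39 and 3.35 and 3.24, 3.45 and 3.25.

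**Figure D2:**
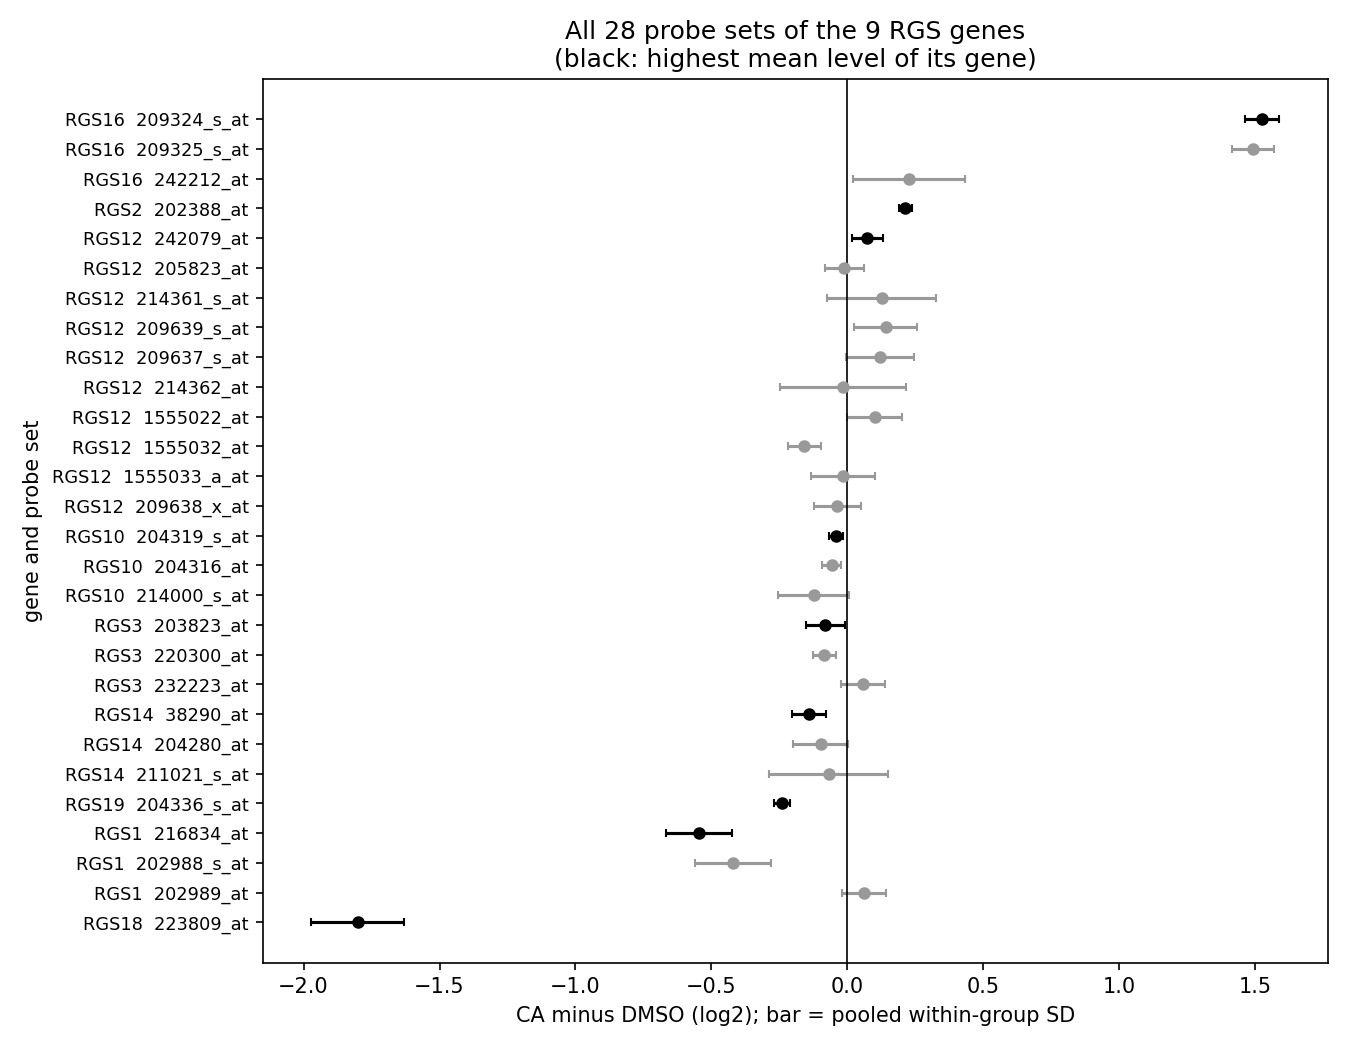
Each point is the CA minus DMSO difference (log2, x axis) of 1 of the 28 probe sets, named on the y axis with its gene, and each bar is the pooled within-group SD. Black points are the probe sets of highest mean, and apart from RGS18, RGS16 and RGS1 the points lie within 0.24 of 0 on either side.

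Over all 28 probe sets, the groups did not overlap in 10, 3 with CA above and 7 with CA below, where 25.1% of all 54613 probe sets had groups that did not overlap (12.1% with CA above, 13.1% with CA below). By limma's moderated test with Benjamini-Hochberg adjustment over all probe sets, 3 of the 28 were called higher (3.0% of all probe sets were) and 3 lower (2.01%; 5.01% in either direction). The called probe sets were the 2 of RGS16 and that of RGS2, and those of RGS18, RGS1 (216834_at) and RGS19. Since the genes were picked on this contrast, nothing is read from these counts. With any 1 of the 6 arrays left out, 2 of the 28 were called higher and 1 or 2 lower. The median difference was -0.03 over the 28 probe sets and -0.01 over all probe sets. Of the 28, 20 differed by less than 0.2 on the log2 scale, and 5 had a mean under the lower quartile of the arrays.

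Across the array, medians were 5.59 to 5.62 and arrays correlated at 0.998 within groups and 0.996 to 0.997 between groups, over probe sets, which are not independent. Of 10 measured markers of myeloid cells and MOLM-14, 1 was called higher (MEIS1) and 2 lower (CSF1R, ITGAM) by limma, and FLT3, LYZ and CEBPA were above 11 on the log2 scale in both groups, while CD14 (4.36 in DMSO) and FCGR1A (4.05) were near or under the lower quartile. The mean log2 level of this list per array was 8.24 to 8.29 in DMSO and 8.21 to 8.25 in CA. Of 5 T cell, 4 B cell and 3 erythroid markers measured, 0 were called (limma; 1, 0 and 0 with an unadjusted p under 0.05), and of 7 epithelial and stromal markers 1, KRT18, was called higher. RNA integrity, read as the GAPDH control's 3' probe set minus its 5' probe set, was 0.349 to 0.398 (log2) in DMSO and 0.441 to 0.533 in CA, without overlap. The same difference for the ACTB control was 2.152 to 2.403 in DMSO and 2.339 to 2.463 in CA, which overlapped. The part of RNA integrity in the differences of the RGS genes was not tested.

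The other RGS genes were put through the same test. They are the genes left over from a choice that had the CA minus DMSO values in view. Their counts therefore depend on that choice too, and nothing is read from them against all genes. Of 11 measured, 1 was called higher and 0 lower among 19775 genes with 1 probe set each, where 11.1% of all genes were called (6.64% higher, 4.49% lower; 2 of the 11 had an unadjusted p under 0.05). RGS20, an RZ protein that acts on Gz, was at 6.83 ± 0.11 in DMSO and 7.11 ± 0.06 in CA (SD, n = 3; log2 difference 0.28, SE 0.06, limma adjusted p = 0.0411). It was called on neither of its 2 probe sets in the fit over all probe sets, the second pointed the other way, and the call was lost with each of the 6 arrays left out (adjusted p of 0.0511 to 0.122). RGS17, also of the RZ group, differed by -0.26 (limma adjusted p = 0.146) at levels of 3.68 and 3.42, under the lower quartile. The R4 genes RGS4 (0.05), RGS5 (-0.07), RGS8 (0.06) and RGS13 (0.06) and the R7 genes RGS6 (0.10), RGS7 (0.11), RGS9 (-0.01) and RGS11 (-0.00) were not called, nor was RGS22 (0.01). The other 3 probe sets of RGS6 pointed lower, at -0.06, -0.13 and -0.23, the last (210270_at) without overlap between groups. RGS13 lies between RGS1 and RGS2 and was at 2.95 in DMSO and 3.01 in CA, under the lower quartile, and RGS21 was not measured. The means of RGS4 (4.47), RGS7 (4.23), RGS9 (4.17) and RGS22 (4.36) lay only just above the lower quartile (4.12). At such levels a missing call does not show an unchanged transcript.

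The genes beside the 9 RGS genes on their chromosomes were compared in the same fit, taking the 3 nearest measured genes on each side that are not among the 9. These were 43 genes, of which 5 were called higher and 1 lower, near the 11.1% of all genes called, so nothing is read from this count. Beside RGS18, RGS1 and RGS2, 0 of 7 were called and 1, UCHL5, had an unadjusted p under 0.05. Limma's adjusted p was 0.0716 for UCHL5 (0.13) and 0.285 to 0.825 for the rest. The means of RGS13 (2.98), LINC01720 (3.10), BRINP3-DT (3.83) and BRINP3 (3.07) lay under the lower quartile of the arrays (4.12). At such levels a fall could hardly be seen, so a missing call does not show an unchanged transcript. RO60 had 5 probe sets, of which 1 was called lower in the fit over all probe sets and 1 pointed higher. Around RGS16, 2 of 6 were called higher. NPL, an enzyme of sialic acid breakdown, rose 1.74-fold (0.80, SE 0.04, adjusted p = 1.28e-04), and GLUL, glutamine synthetase, 1.33-fold (0.41, SE 0.05, adjusted p = 0.00294). With _x_at and _s_at probe sets left out, GLUL was at 0.03 (adjusted p = 0.784). RGS8 (0.06), LINC01686 (0.05), TEDDM1 (-0.05) and RGSL1 (0.14), which lie closer to RGS16, were not called. Beside RGS10, the co-chaperone gene BAG3 (0.54) and the receptor kinase gene GRK5 (0.29) were called higher, while RGS10 itself differed by -0.04. Beside RGS14, F12, which encodes a coagulation factor, was called higher (0.27), and beside RGS3 the haem synthesis gene ALAD was called lower (-0.22). F12 and ALAD lost their calls with each of 5 of the 6 arrays left out (adjusted p up to 0.0957 and 0.0774), F12 keeping its call without CA replicate 1 and ALAD without CA replicate 2. With their probe sets averaged, neither was called (limma adjusted p of 0.575 and 0.131). With DMSO replicate 2, DMSO replicate 3 or CA replicate 3 left out, 3 neighbours were called in place of 6. Of the 12 genes beside RGS12 and RGS19, limma called 0, and 2 had an unadjusted p under 0.05.

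**Figure D3:**
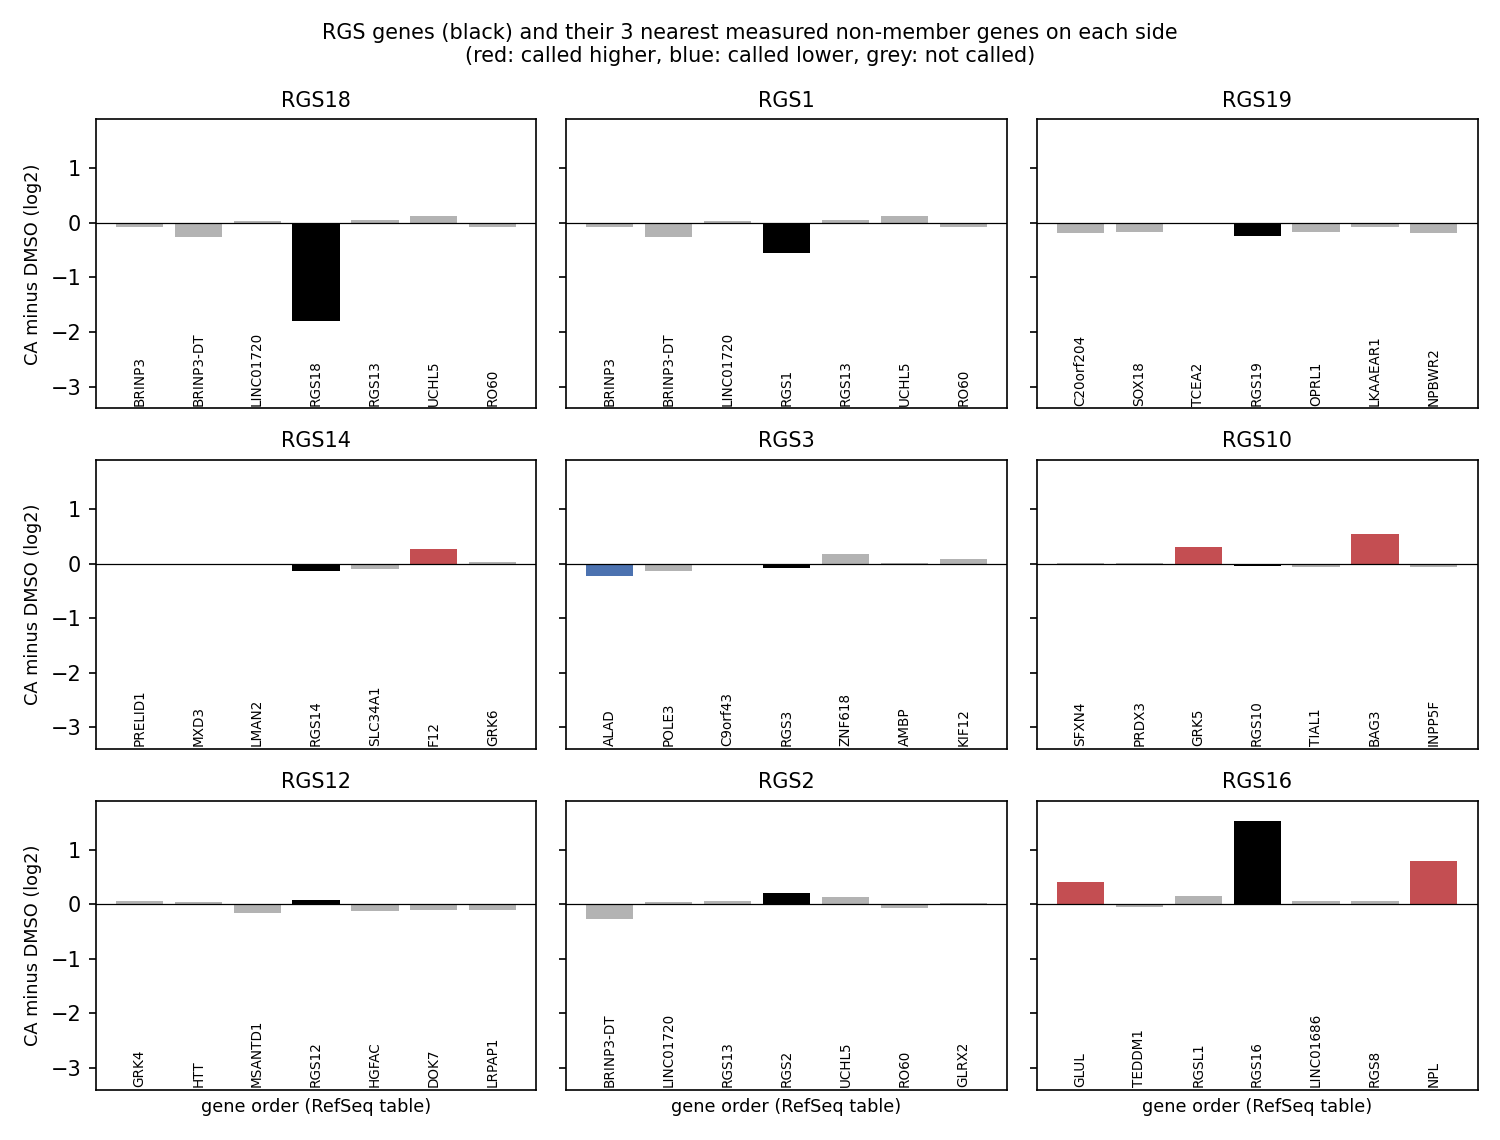
Each panel shows 1 RGS gene (black bar) with its 3 nearest measured genes on either side in RefSeq gene order, and bar height is CA minus DMSO (log2). The neighbours of RGS18 lie between -0.26 and 0.13, against -1.80 for RGS18. Among these neighbours RGS13, LINC01720, BRINP3-DT and BRINP3 had means under the lower quartile of the arrays (4.12), where a fall could hardly be seen. The neighbours called higher around RGS16 are NPL (0.80) and GLUL (0.41).

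Genes that work with RGS proteins changed in both directions. Over the 6 lists of G-protein genes, 119 were measured, 18 rose and 14 fell, where 6.64% of all genes were called higher and 4.49% lower, with a median difference of -0.01 against -0.00 over all genes. With any 1 array left out, 14 to 16 rose and 6 or 7 fell. The lists were chosen with earlier results of these data known, so nothing is read from these counts. Alpha subunits are the direct targets of RGS proteins, and of 15 measured 2 rose and 1 fell. GNAQ, the Gq subunit that RGS2, RGS16 and RGS18 act on, rose (0.29, SE 0.04, limma adjusted p = 0.00437), as did GNA15, a Gq-class subunit of blood cells (0.28). GNAI2, the main Gi subunit of leukocytes, was called lower (-0.21). GNA15 was called with all arrays and without DMSO replicate 1 but not without any other array (adjusted p up to 0.0596), and GNAI2 lost its call with each array left out (up to 0.0843). Of 16 beta and gamma subunits, 1 rose and 2 fell. The gamma subunits GNG4 (0.84) and GNG11 (-0.81) moved by similar amounts in opposite directions. In the fit over all probe sets, GNG4 was called higher on 3 of its 4 probe sets, and 1 pointed lower. GNG11 was called lower on 1 of its 2 probe sets, and the other pointed higher. GNG10 was called lower (-0.20) but not with any array other than DMSO replicate 3 left out.

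Leukocyte receptors, through which chemokines and lipids act, were the longest list. Of 40 measured leukocyte receptors, 9 rose and 5 fell. GPR183, an oxysterol receptor that guides leukocyte migration, rose 2.90-fold (1.54), the lysophosphatidic acid receptor gene LPAR6 2.04-fold (1.03) and the chemokine receptor gene CCR1 1.57-fold (0.65). LPAR6 was called on 1 of its 2 probe sets in the fit over all probe sets. With both averaged, its difference was 0.53 (limma adjusted p = 0.00125). The fractalkine receptor gene CX3CR1 fell 2.37-fold (-1.25, adjusted p up to 7.95e-04 with any 1 array left out). Of 26 effectors, 2 rose and 4 fell. The lipid kinase genes PIK3CB (-0.42) and PIK3CG (-0.29), the adenylyl cyclase gene ADCY7 (-0.40) and the phospholipase gene PLCB2 (-0.23) fell. With _x_at and _s_at probe sets left out, ADCY7 was at 0.01 (adjusted p = 0.904). PIK3CG lost its call without DMSO replicate 1 or 3 or CA replicate 1 or 2 (adjusted p up to 0.0829), and PLCB2 without DMSO replicate 3 or CA replicate 2 or 3 (up to 0.0570). Of 10 receptor kinases and arrestin-related genes, 3 rose and 1 fell. ARRDC3 (0.73) and ARRDC4 (0.41), alpha-arrestins that direct protein trafficking, rose, and the receptor kinase gene GRK3 fell (-0.25). GRK5 (0.29) lost its call without DMSO replicate 2 or 3 or CA replicate 2 or 3 (adjusted p up to 0.0917), and its sign turned with _x_at and _s_at probe sets left out (-0.04). Of 12 other modulators, RASD1, a Ras-like activator of G-protein signalling, rose 3.85-fold (1.95, SE 0.11, limma adjusted p = 1.51e-04), and GPSM3, which binds Gi subunits through GoLoco motifs, was called lower (-0.19). GPSM3 kept its call with CA replicate 1 left out and lost it with each other array left out (adjusted p up to 0.0962). With the probe sets of each gene averaged, limma called neither PLCB2 (adjusted p = 0.116), GRK3 (0.0728), GRK5 (0.552) nor GPSM3 (0.118). With arrays centred on the reference genes, GNAI2 (limma adjusted p = 0.0511) and GNG10 (0.0621) were not called.

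**Figure D4:**
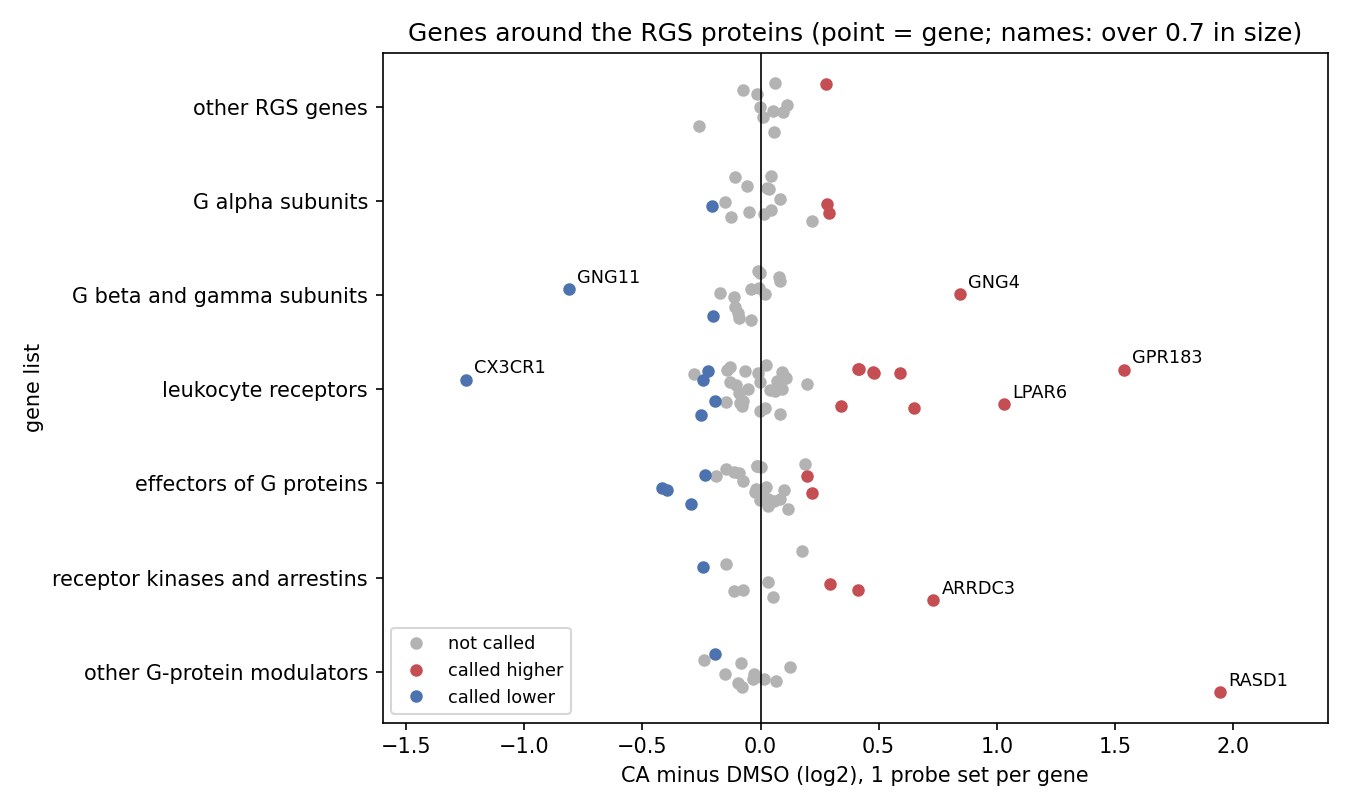
Each point is 1 gene, placed by CA minus DMSO (log2, x axis) in the row of its list (y axis), in red where limma called it higher, in blue where it called it lower and in grey where it did neither. RASD1 (1.95) and GPR183 (1.54) lie farthest to the right and CX3CR1 (-1.25) farthest to the left. The RGS genes outside the 9 lie between -0.26 and 0.28, and the 9 were chosen with these differences in view.

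The genes whose 6 values followed RGS18 and RGS16 most closely were found over all other genes by the Euclidean distance between values centred on their own mean, over 6 arrays of 2 groups. For RGS18 these were PKIB, an inhibitor of protein kinase A (distance 0.514), the scavenger receptor gene CD36 (0.568) and the adaptor gene FYB1 (0.712). PKIB read 6.48, 6.48 and 6.70 in DMSO and 4.96, 4.79 and 4.98 in CA. For RGS16 they were the interferon regulatory factor gene IRF1 (0.156), the metalloprotease gene ADAMTS17 (0.175) and the membrane protein gene MS4A4A (0.176). IRF1 read 8.33, 8.17 and 8.26 in DMSO and 9.83, 9.83 and 9.84 in CA. Its SD was 0.085 in DMSO, against 0.086 for RGS16. In CA it was 0.005, smaller than the 0.025 of RGS16. The distances are descriptions, and with 2 groups they mostly measure how alike the differences between groups are.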

How the data were processed

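Gene expression was measured on 6 arrays, 3 from DMSO wells and 3 from CA wells, grouped by the sample titles. Per the submitters' processing notes, the authors used RMA and the affy package, and the table holds a log2 intensity for every probe set. RMA corrects background, quantile-normalizes arrays and summarises probes, and it compresses large differences. Tool versions are not given in the sources read here, nor is the set of arrays that were normalized together. Arrays have no sequencing depth, and their number limits the precision.

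Of 54675 probe sets, 62 controls were left out. The platform annotation gave 41091 probe sets 1 symbol and 1801 several, and 11721 were unnamed here. Of those with 1 symbol, 41037 matched the RefSeq gene table (GRCh38.p14) by Entrez number, which updated symbols and gave gene order. RGS differences were taken per probe set. For other genes the probe set of highest mean stood for the gene, which gave 19775 genes. Differences between CA and DMSO were tested in limma 3.58.1 under R 4.3.3 (lmFit, eBayes, 2-sided, no covariates, no filter on level), with Benjamini-Hochberg adjustment over all probe sets or all genes and a call at an adjusted p under 0.05. Scripts were tested on simulated data.

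The RGS genes, the gene lists and the tests were chosen with earlier results of these data known. Named genes were every RGS gene, up to 4 called genes of each list with the largest difference, every called neighbour, and the 3 genes closest in pattern to the RGS genes with the largest fall and rise. Lists had 129 names in all, of which 119 were measured. AGS3, counted as not measured, is another name of GPSM1, which was measured. Promoter sequences are from the RefSeq promoter table (GRCh38.p14), which held all 9 genes in 19 windows of 250 bases before a start. Alternatives were 2 ways of centring arrays, an intensity trend with robust moderation, an adjusted p under 0.01, a mean log2 of at least 5, no _x_at and _s_at probe sets, other values per gene, a replicate block, and each array left out in turn.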

Additional observations from a re-analysis of the deposited data

How the results depend on the processing

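On the probe set of highest mean of each gene, the differences of RGS18, RGS1, RGS19, RGS14, RGS3 and RGS10 were below 0 and those of RGS16, RGS2 and RGS12 above 0 under each centring and with any 1 array left out. Those of RGS3, RGS10, RGS12 and RGS14 were not called, and the probe sets of RGS1, RGS3 and RGS12 differed in sign among themselves. For RGS1 and RGS3 the only probe set of the other sign (202989_at and 232223_at) had a mean under the lower quartile of the arrays (4.12). With arrays centred on the reference genes, the median of all genes moved by 0.03. The differences were then 0.24 for RGS2, -0.010 for RGS10 and -0.21 for RGS19. The share of called probe sets that were higher went from 59.9% to 72.4%. Of the 10 measured reference genes, limma called 0 higher and 1 lower (HPRT1, -0.21), and 4 had an unadjusted p under 0.05. This centring therefore rests in part on genes that differed themselves. With _x_at and _s_at probe sets left out, RGS16 was at 0.23, RGS19 had no probe set, 0 of the RGS probe sets were called higher by limma (1 with an unadjusted p under 0.05), 1438 probe sets were called in place of 2736, ADCY7 was at 0.012 and GRK5 at -0.038. The count of called probe sets was 6073 with an intensity trend and robust moderation, 4503 at a mean log2 of at least 5 and 968 at an adjusted p under 0.01. At that threshold 1 RGS probe set was called lower, 4 pathway genes lower and 3 neighbours. On the probe set of largest variance 6 pathway genes fell in place of 14.

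Of the RGS genes outside the 9, 0 were called by limma in place of 1 with a replicate block, at an adjusted p under 0.01, without _x_at and _s_at probe sets, on the mean of all probe sets and on that of largest variance, where 1 to 3 had an unadjusted p under 0.05. With any 1 array left out, 1239 to 1327 probe sets were called, 1 or 2 RGS probe sets lower and 2 higher, 14 to 16 pathway genes higher and 6 to 7 lower, 3 to 5 neighbours, and 0 of the other RGS genes (1 to 3 with an unadjusted p under 0.05). RGS18 then lay between -1.87 and -1.69, RGS16 between 1.48 and 1.57, RGS1 between -0.62 and -0.46 and RGS2 between 0.20 and 0.23.

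Arrays that share a replicate number did not deviate together (r = -0.01, 0.03 and -0.03 over probe sets). No array correlated best with its own number. With 3 arrays in each group, these few values cannot show whether the numbers pair any wells. With a replicate block 1109 probe sets were called, 2 RGS probe sets lower and 2 higher, 14 pathway genes rose and 5 fell, and GRK3 was not called (limma adjusted p = 0.0592). Probe sets near the lower quartile give uncertain differences.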
